A study of Homo sapiens with 6 samples.

Results

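The tetraspanin genes were followed in the NCI-H2023 line, derived from a human adenocarcinoma of the lung, after transfection with a mimic of miR-223-3p or of miR-29a-3p. A gene was taken as a member when its annotated symbol was TSPAN followed by a number, or was CD9, CD37, CD53, CD63, CD81, CD82 or CD151. This rule found 29 of the 17687 genes measured, each with 1 probe set, so transcript isoforms of a member were not resolved. The rule used no measured value, but TSPAN7 was singled out with its value in the miR-223-3p comparison already known, and that value is given as a description. The 6 samples fell into 3 groups of 2, lettered A and B. They were control cells, which received a negative control RNA (called a mimic control in the titles and an All Stars siRNA in the protocol), cells given the miR-223-3p mimic and cells given that of miR-29a-3p, each RNA at 0.5 nM. All 3 groups were reverse transfected with a lipid reagent and given fresh medium at 24 h. The labels do not say whether A and B were separate cultures. A p-value here sets a difference between groups against the spread within groups. That spread may be technical, so a p-value reaches no further than these samples.

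Tetraspanins are small membrane proteins that cross the membrane repeatedly and carry a short and a long extracellular loop. They bind one another and partners such as integrins, immunoglobulin-like proteins and proteases, and so organise patches of the membrane and steer partners through the secretory and endosomal routes. In epithelial and carcinoma cells they are known for their part in adhesion, migration and the release of extracellular vesicles. A microRNA lowers transcripts mainly by pairing its seed, bases 2 to 8, with complementary sites in them.

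The mature sequences of both microRNAs, from RefSeq (GRCh38.p14), are shown because the treatments differ in this sequence, and capitals mark the seed.
hsa-miR-223-3p: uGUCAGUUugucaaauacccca
hsa-miR-29a-3p: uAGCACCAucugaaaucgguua
The first is encoded on chromosome X from 66018937 to 66018958 on the plus strand, and the second on chromosome 7 from 130876748 to 130876769 on the minus strand. The seeds share a base at 2 of 7 positions, and transcript sites complementary to them would read AACUGAC and UGGUGCU. Transcript sequences were not used here, so the tetraspanin transcripts were not searched for these sites.

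The values are log2 signals from arrays, made by the authors with RMA, and their medians per array lay between 6.21 and 6.23. The number of arrays, 2 per group, limits the precision. The 2 samples of a group differed by a median of 0.18 to 0.19 (log2) over the tetraspanins and of 0.20 to 0.22 over all genes. For 11 of the 29 members the mean signal over the samples was under 5, the level used here to mark dim genes, at which background signal pulls differences toward 0. These were TSPAN1, TSPAN2, TSPAN5, TSPAN8, TSPAN10, TSPAN11, TSPAN16, TSPAN18, TSPAN19, TSPAN32 and CD53. Over the whole array 11186 of the 17687 genes had a mean of 5 or more. Of the cell type markers, the epithelial list had 1 of 10 members under 5. All 4 lung lineage markers (NKX2-1, NAPSA, SFTPB and SFTPC) were under 5, as were 5 of 9 leukocyte, 6 of 7 fibroblast, 5 of 6 endothelial and 4 of 6 neuronal markers.

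**Figure D1:**
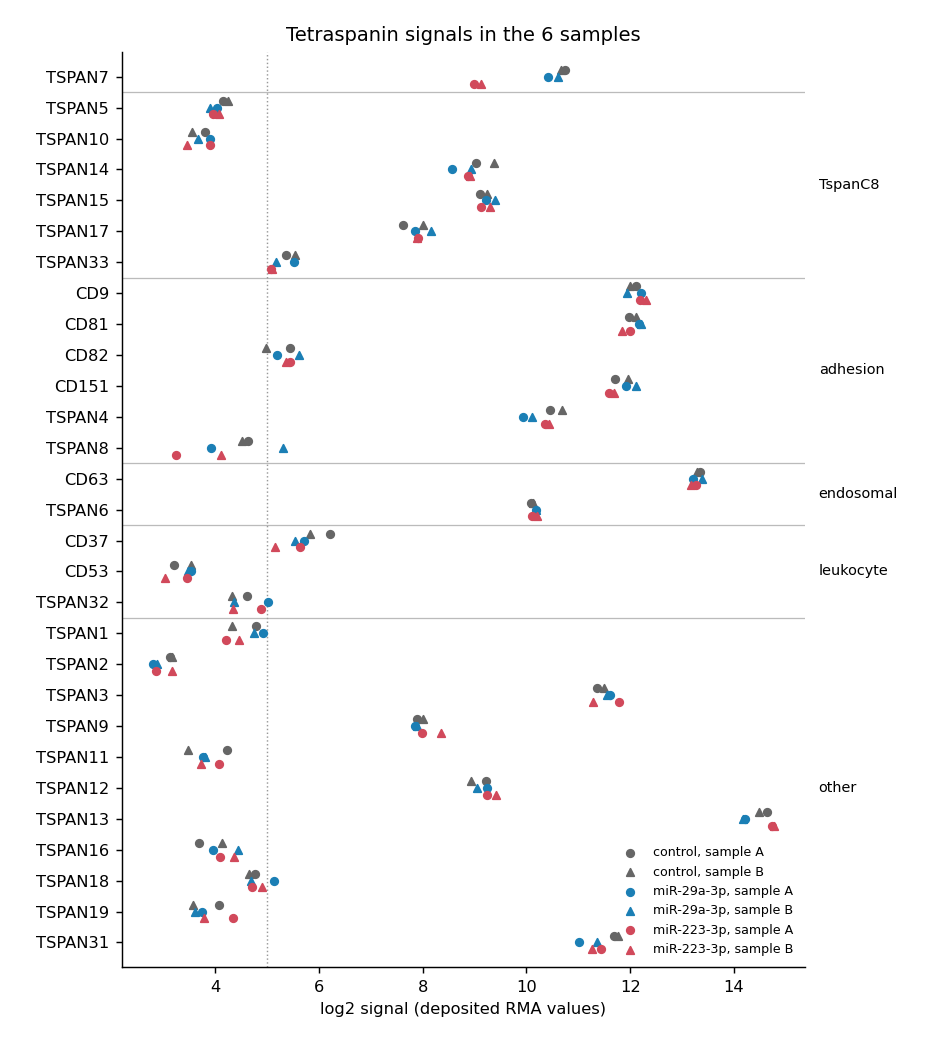
Log2 signal (horizontal axis) of each of the 29 tetraspanins in each of the 6 samples, grouped by role; grey is control, blue miR-29a-3p, red miR-223-3p, circles are samples A and triangles samples B. The dotted line marks a signal of 5, and TSPAN7 is at 8.99 and 9.12 in the miR-223-3p samples against 10.42 to 10.75 in the other samples.

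The first comparison asked how the tetraspanin transcripts differed between cells with the miR-223-3p mimic and control cells. TSPAN7 stood far below control, and the other 28 members lay between -0.90 and 0.31 on the log2 scale. TSPAN7 (gene ID 7102, GRCh38 chromosome X, 38561542 to 38688918) is a tetraspanin best known from neurons, where mutations cause X-linked intellectual disability and where it takes part in glutamate receptor traffic. Its log2 signal was 10.75 and 10.66 in the control samples and 8.99 and 9.12 in the miR-223-3p samples. Both mimic samples lay below both control samples, and the gap between the groups was many times the gap within either.

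The group means of TSPAN7 were 10.71 ± 0.0636 in control and 9.055 ± 0.0919 with miR-223-3p (SD, n = 2 each), a 3.14-fold lower signal. The log2 difference was -1.65 with a standard error of 0.178 and a 95% interval from -2.06 to -1.24. By size it ranked 1 of the 29 tetraspanins and 3 of the 17687 genes, tied with 1 other gene as the lowest. The adjusted p in limma was 0.0855 with a constant prior variance, which misses the threshold of 0.05, and 7.34e-05 with a prior that follows the signal level (the intensity trend). Leaving out any 1 of the 6 samples gave differences from -1.715 to -1.585, with a call in the trend fit and none with the constant prior. The trend fits without a sample were chosen after seeing the data.

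No tetraspanin passed the limma test with the constant prior in this comparison, against 0% of all genes, where 1343 genes had an unadjusted p under 0.05, 7.59% of those tested. TSPAN7 and CD37 were the 2 members under that unadjusted level. With the intensity trend TSPAN7 was the 1 member called of 29, against 0.684% of all genes. Of the family 14 members lay above control, 14 below and TSPAN10 at no difference, with a median of 0 beside a median of 0 over all genes, and of 0.02 without TSPAN7. The members' median absolute difference was 0.185, and it was 0.17 over all genes. The groups did not overlap for 13 of the 29 members, against 36.9% of all genes. Of these 10 were lower and 3 higher, against 18.2% and 18.7% of all genes in those directions.

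TSPAN8, a carcinoma-associated tetraspanin that partners integrins and EPCAM, had the second largest difference, at -0.90 (standard error 0.431, interval from -1.88 to 0.0828). It measured 4.64 and 4.52 in control and 3.24 and 4.12 with miR-223-3p. The mimic samples both lay below control but 0.88 apart, the widest gap of any tetraspanin in that group, and the gene is dim. The difference was -0.46 without sample A of miR-223-3p and -1.34 without sample B. Its adjusted p in limma was 0.689, and 0.483 with the intensity trend.

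CD37, a tetraspanin of B cells and other leukocytes, measured 6.21 and 5.84 in control and 5.63 and 5.16 with miR-223-3p. The samples did not overlap, and the log2 difference was -0.63 with a standard error of 0.226. It did not pass limma's test, with an adjusted p of 0.576, and was -0.865 without sample A of miR-223-3p and -0.395 without sample B. Of the leukocyte markers measured beside it, 6 of 9 lay lower and 3 higher, none called in either fit. Their mean signal per sample was 4.85 to 5.04 in control and 4.83 to 4.86 with the mimic. PTPRC, the pan-leukocyte phosphatase CD45, was dim, with a mean of 4.72 in control and 4.44 with the mimic. The 3 higher markers were CD14, CD79A and MS4A1, at 0.225, 0.135 and 0.10. The part of the leukocyte markers in the CD37 value was not tested. CD37 shares 4925 bases with SLC6A16, which differed by -0.08 with miR-223-3p and by -0.115 with miR-29a-3p. It shares 12 bases with TEAD2, which differed by -0.18 and -0.615 in that order.

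The 6 TspanC8 members escort the protease ADAM10 to the cell surface and tune which substrates it cuts. None of the 6 was called with miR-223-3p, and their differences ran from -0.375 to 0.09. TSPAN33, at the low end, is known from B cells and red cell precursors. It measured 5.36 and 5.55 in control, 5.07 and 5.09 after miR-223-3p, and 5.53 and 5.18 after miR-29a-3p. The miR-223-3p samples lay below the other 4 samples, and the adjusted p in limma against control was 0.713. TSPAN14 differed by -0.305, TSPAN5 by -0.18, TSPAN10 by 0, TSPAN15 by 0.04 and TSPAN17 by 0.09. ADAM10 itself had means of 11.98 in control and 12.07 with miR-223-3p, a difference of 0.09.

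The adhesion partners apart from TSPAN8 differed by 0.185 or less in size with miR-223-3p. CD151, the main partner of laminin-binding integrins, and TSPAN4, known for its place in migration tracks, each differed by -0.185. CD81, a coreceptor in the B cell receptor complex and a hepatitis C virus receptor, differed by -0.115. CD9, a partner of EWI proteins and integrins, and CD82, known as a metastasis suppressor, each lay 0.185 above control. None passed limma in either fit, and the adjusted p with the constant prior ran from 0.879 to 0.945 over these 5. The 95% intervals were wide, from -0.609 to 0.239 for CD151 and from -0.329 to 0.699 for CD82. CD151 and TSPAN4 lay lower and CD9 higher without overlap, against 18.2% and 18.7% of all genes in those directions. CD63, the tetraspanin of late endosomes and secreted vesicles, differed by -0.09 with an interval from -0.491 to 0.311, and TSPAN6, which acts in endosomal sorting, by 0.05 with an interval from -0.339 to 0.439.

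**Figure D2:**
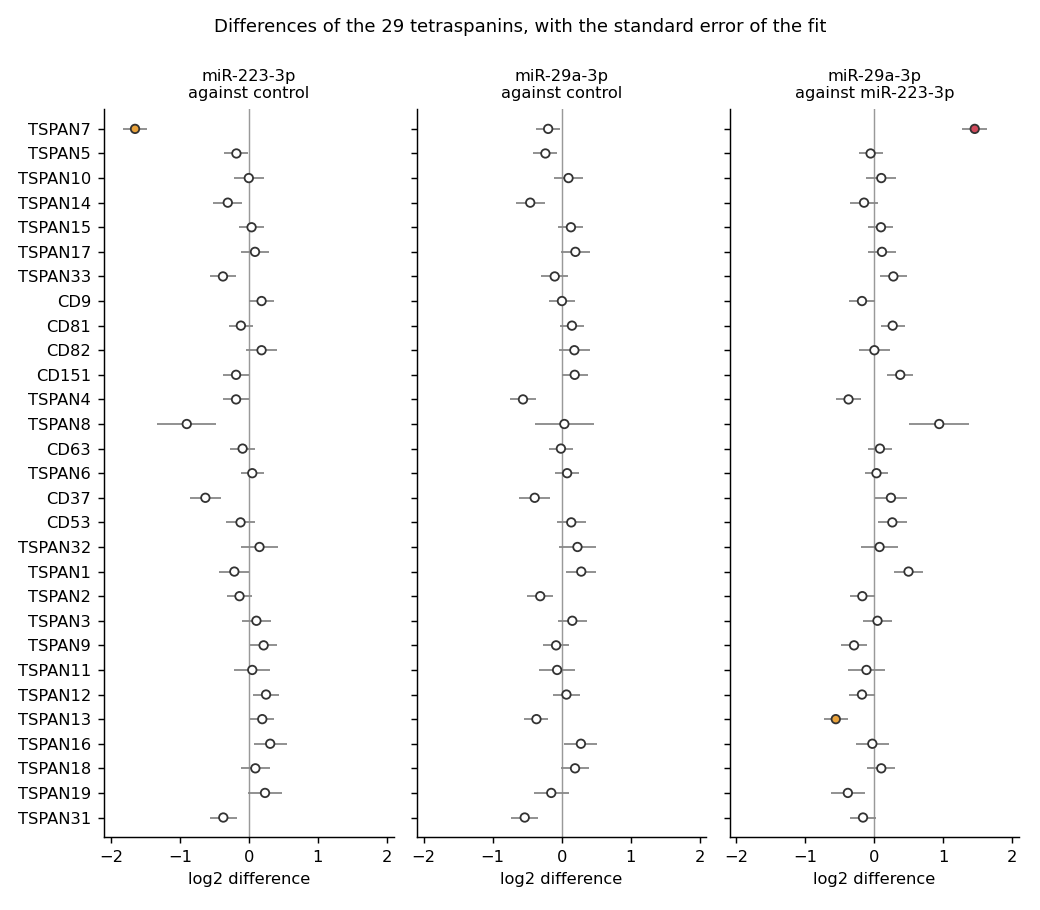
Log2 difference of group means (horizontal axis) for the 29 tetraspanins in the 3 comparisons, with bars for the standard error of the fit. Red marks a limma call with the constant prior, orange a call with the intensity trend alone; TSPAN7 is at -1.65, -0.195 and 1.455, and TSPAN13 is at -0.56 in the third panel.

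The second comparison asked how the family differed from control after the miR-29a-3p mimic. No tetraspanin passed limma in either fit, and TSPAN7 differed by -0.195. The largest differences were in TSPAN4 at -0.56, TSPAN31 at -0.535 and TSPAN14 at -0.455, and the highest member was TSPAN1 at 0.285. Over all genes 0.0113% were called with the constant prior and 1.03% with the trend. TSPAN4 and TSPAN31 were the 2 members with an unadjusted p under 0.05, a level that 1567 genes or 8.86% of those tested reached.

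TSPAN4 (chromosome 11, 842852 to 867111) measured 10.46 and 10.69 in control, 9.93 and 10.1 after miR-29a-3p and 10.35 and 10.43 after miR-223-3p. Both miR-29a-3p samples were lower than the other 4 samples. The difference from control was -0.56 with a standard error of 0.183, a 1.47-fold lower signal, and the adjusted p in limma was 0.424, and 0.144 with the intensity trend. Its neighbour CD151 starts on the same chromosome with 4020 bases between the genes. CD151 measured 11.71 and 11.95 in control and 11.92 and 12.12 with miR-29a-3p, a difference of 0.19 with overlapping samples, so the values of the neighbours had opposite signs and neither was called.

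TSPAN31 (chromosome 12, 57745039 to 57750219) was found as a gene amplified in sarcomas together with CDK4. It measured 11.68 and 11.76 in control, 11.01 and 11.36 after miR-29a-3p and 11.44 and 11.26 after miR-223-3p, so both control samples were above the 4 mimic samples. With miR-29a-3p the difference was -0.535 with a standard error of 0.195, and the adjusted p in limma was 0.487, and 0.131 with the trend. With miR-223-3p it was -0.37, with 0.72 and 0.491. The gene shares 2493 bases with CDK4, the G1 kinase, which lies on the other strand. CDK4 differed by -0.095 with miR-29a-3p and by -0.17 with miR-223-3p.

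TSPAN14 measured 9.03 and 9.37 in control, 8.56 and 8.93 after miR-29a-3p and 8.88 and 8.91 after miR-223-3p. All 4 mimic samples lay below control, with differences of -0.455 and -0.305 and adjusted p in limma of 0.58 and 0.803. Leaving out 1 sample moved the first to between -0.64 and -0.27 and the second to between -0.475 and -0.135. CD37 measured 5.72 and 5.55 with miR-29a-3p, a difference of -0.39 with an adjusted p of 0.665. Both comparisons use the same control samples, so for TSPAN31, TSPAN14 and CD37 a high control mean would enter both values.

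TSPAN7 measured 10.42 and 10.6 with miR-29a-3p, just below its control samples. Its difference of -0.195 had an interval from -0.601 to 0.211, and it ranked 12 of the 29 by size. TSPAN8 measured 3.93 and 5.31, one sample below and one above control, and its difference of 0.04 was -0.65 without sample B of miR-29a-3p, -0.02 without sample B of control and 0.73 without sample A of miR-29a-3p. Among the endosomal and vesicle tetraspanins, CD63 differed by -0.01 and TSPAN6, at 10.18 in both mimic samples, by 0.08. CD9 differed by 0.005 and CD81 by 0.15.

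With miR-29a-3p 16 of the members lay above control and 13 below, with a median of 0.04 beside 0 over all genes and a median absolute difference of 0.185 beside 0.18. The groups did not overlap for 12 of the 29 members, against 37.8% of all genes, with 9 lower and 3 higher, against 18.8% and 19% of all genes. The 9 lower were TSPAN2, TSPAN4, TSPAN5, TSPAN7, TSPAN9, TSPAN13, TSPAN14, TSPAN31 and CD37. The 3 higher were TSPAN3, TSPAN6 and CD81, each by 0.155 or less. No member among the 12 passed limma in either fit.

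**Figure D3:**
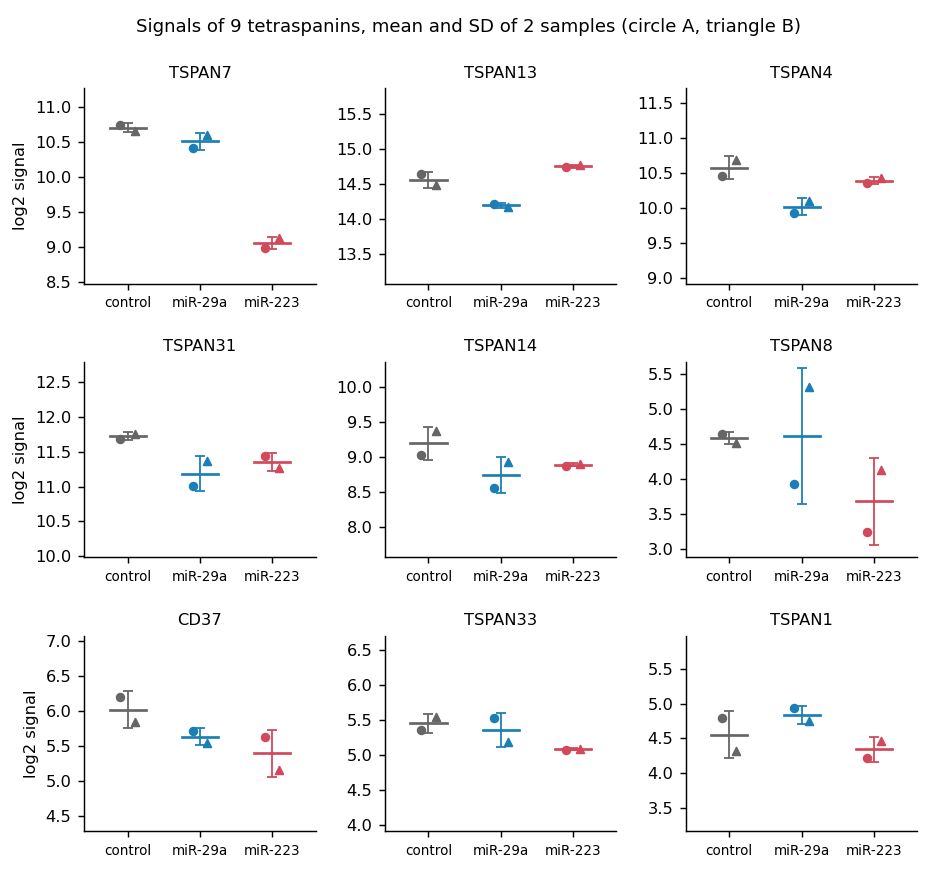
Log2 signal of the 9 tetraspanins with the largest differences or a call; each point is 1 sample, the line and bar are the mean and SD of 2 samples, and all panels span the same range. TSPAN7 is low in both miR-223-3p samples, TSPAN13 is lowest in both miR-29a-3p samples, and the 2 TSPAN8 samples differ by 1.38 with miR-29a-3p.

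The last comparison was between the mimics themselves. It tests their difference directly, and it shares its samples with the comparisons above. TSPAN7 was 2.74-fold higher after miR-29a-3p than after miR-223-3p, a log2 difference of 1.455 with a standard error of 0.178 and an interval from 1.05 to 1.86. Both miR-29a-3p samples lay above both miR-223-3p samples. It was the 1 of 29 tetraspanins that passed limma with the constant prior, with an adjusted p of 0.0321, against 0.221% of all genes, and it ranked 27 of 17687 by size. The miR-223-3p samples that led to its being singled out are in this comparison too.

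That call was lost with the constant prior when any 1 of the 6 samples was left out, with adjusted p from 0.0735 to 0.229, while the difference stayed between 1.365 and 1.545. With the intensity trend the adjusted p was 5.2e-05, and 5.31e-05 to 0.00475 without any 1 sample. In the same comparison 6 of 6 neuronal markers lay higher after miR-29a-3p, without overlap, where 19.2% of all genes did, and none was called in either fit. The mean of that list per sample was 5.93 to 6.04 in control, 5.92 to 5.94 after miR-223-3p and 6.30 to 6.49 after miR-29a-3p, and its part in the TSPAN7 value between the mimics was not tested. SYT1 and SNAP25, of the synaptic vesicle release machinery, were the bright members, with means over the samples of 11.15 and 8.66 and differences between the mimics of 0.10 and 0.615. GAP43, STMN2, RBFOX3 and SYP had means of 4.87, 2.97, 4.42 and 4.55 and differences of 0.755, 0.72, 0.425 and 0.195. Against control 3 of the 6, SNAP25, SYT1 and RBFOX3, lay lower after miR-223-3p without overlap, against 18.2% of all genes. Their differences were -0.195, -0.13 and -0.09. With miR-29a-3p 5 of the 6 lay above control, 3 without overlap, against 19% of all genes, with a list median of 0.3775.

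TSPAN13 (chromosome 7, 16753755 to 16784536), a tetraspanin studied in carcinomas and as a regulator of calcium channels, was the other member called with the trend. It measured 14.64 and 14.48 in control, 14.22 and 14.17 after miR-29a-3p and 14.74 and 14.77 after miR-223-3p. The 3 groups did not overlap, with control between the mimics. Between the mimics the signal was 1.47-fold lower with miR-29a-3p, a difference of -0.56 (standard error 0.174). The adjusted p was 0.00546 in limma with the trend, where 1.94% of all genes were called, and 0.322 with the constant prior. With the trend it was 0.0507 without sample A of miR-29a-3p, 0.0732 without sample B of miR-29a-3p and 0.0585 without sample B of miR-223-3p. From control TSPAN13 differed by -0.365 with miR-29a-3p and by 0.195 with miR-223-3p, neither called.

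TSPAN8 and TSPAN1 had the next largest values on the high side. TSPAN8 differed by 0.94 with an interval from -0.0428 to 1.92, and its samples overlapped. Leaving out 1 sample gave values from 0.25, without sample B of miR-29a-3p, to 1.63, without sample A of it. TSPAN1, known for high levels in several epithelial cancers, measured 4.79 and 4.32 in control, 4.22 and 4.47 after miR-223-3p, and 4.93 and 4.75 after miR-29a-3p. Its difference between the mimics was 0.495 with an adjusted p of 0.483 in limma, and the mimics did not overlap, while control lay across both. TSPAN1 shares 7807 bases with POMGNT1, on the other strand, which differed by 0.545 between the mimics, with an adjusted p of 0.377. CD151 and TSPAN4 differed by 0.375 and -0.375, both without overlap, with adjusted p in limma of 0.555 and 0.547. CD81 differed by 0.265, TSPAN33 by 0.275 and CD53, a leukocyte tetraspanin that is dim here, by 0.26, all 3 without overlap.

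Over the family, 16 members were higher after miR-29a-3p than after miR-223-3p, 12 were lower and CD82 did not differ, with a median of 0.045 beside -0.005 over all genes. The mimics did not overlap for 10 of the 29 members, against 38.7% of all genes, with 6 higher and 4 lower, against 19.2% and 19.5%. An unadjusted p under 0.05 was reached by TSPAN7, TSPAN13 and TSPAN1, 3 of 29 members, against 10.3% of all genes.

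**Figure D4:**
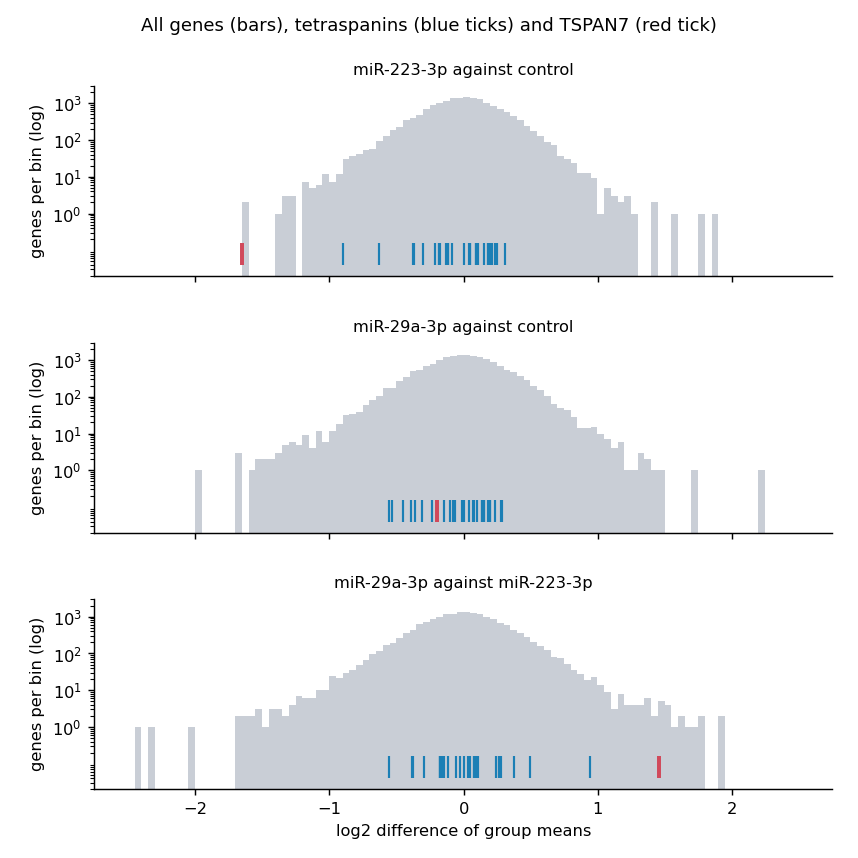
Distribution of the log2 differences of all 17687 genes (bars, gene counts per bin on a log axis) in the 3 comparisons, with a tick for each tetraspanin (blue) and for TSPAN7 (red). TSPAN7 is at the lower edge of all genes at -1.65 in the top panel, among the other members at -0.195 in the middle one, and at 1.455 in the bottom one.

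The other members are given with their lowest and highest signal over the samples. TSPAN12, a coreceptor for Norrin at Frizzled-4, measured 8.94 to 9.42 over the samples and lay 0.25 above control with miR-223-3p, without overlap and with an adjusted p of 0.834 in limma. TSPAN3, studied in acute myeloid leukaemia, measured 11.29 to 11.79, and TSPAN9, a platelet tetraspanin, 7.85 to 8.35. TSPAN15 and TSPAN17 measured 9.10 to 9.39 and 7.62 to 8.17. TSPAN6 had the narrowest range of the family, 10.08 to 10.2.

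The remaining dim members were TSPAN2, known from oligodendrocytes, at 2.80 to 3.17, TSPAN5 at 3.91 to 4.25, TSPAN10 at 3.46 to 3.91, TSPAN11 at 3.48 to 4.23, TSPAN16 at 3.70 to 4.44, TSPAN18 at 4.66 to 5.13, TSPAN19 at 3.58 to 4.35 and TSPAN32, a leukocyte tetraspanin, at 4.32 to 5.02. At such signals a change in these genes may not be seen with 2 arrays a group. TSPAN19 differed by -0.385 between the mimics, without overlap, with an adjusted p in limma of 0.675. CD82 measured 4.99 to 5.61, and CD53 3.04 to 3.54.

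The family is spread over the genome, with 7 members on chromosome 12 and 6 on chromosome 11. On chromosome 11 there are 3 pairs of neighbouring members. These are CD151 with TSPAN4, CD81 with TSPAN32 (57975 bases apart) and CD82 with TSPAN18 (105951 bases apart). With miR-223-3p the second pair differed from control by -0.115 and 0.155 and the third by 0.185 and 0.095, and with miR-29a-3p by 0.15 and 0.23 and by 0.185 and 0.195. None of these was called.

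The genes that work with tetraspanins were read from lists of partners, enzymes and relatives. Beside their calls with the trend, 0.684% of all genes were called with miR-223-3p, 1.03% with miR-29a-3p and 1.94% between the mimics. ADAM10 and related proteases had 8 of 9 members measured and none called in any comparison in either fit. ADAM17, the related sheddase, differed by -0.325 with miR-29a-3p, PSEN2, of gamma-secretase, by 0.255 with miR-223-3p, and BACE2, a relative of beta-secretase, by -0.37 between the mimics. The list's median difference was -0.0275 with miR-223-3p, -0.045 with miR-29a-3p and -0.135 between the mimics, beside 0, 0 and -0.005 over all genes. Among 15 of 17 measured substrates of ADAM10, CXCL16, a transmembrane chemokine, was called. Its means were 10.13 in control, 10.36 after miR-223-3p and 8.905 after miR-29a-3p. It was 2.74-fold lower after miR-29a-3p than after miR-223-3p, with an adjusted p of 0.0326 in limma with the constant prior, and differed from control by -1.225 with miR-29a-3p, with 0.117, and 0.00133 with the trend. CDH1, E-cadherin, differed by -0.87 between the mimics with an adjusted p of 0.036 with the trend. CD44, a hyaluronan receptor, differed from control by -0.60 and -0.62 with miR-223-3p and miR-29a-3p, neither called. Both CD44 values share the control samples. Medians of the substrates were -0.005, -0.04 and -0.01 in the order above.

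Of 11 integrins none was called against control. Between the mimics ITGA3 and ITGA6, chains of the laminin-binding integrins that CD151 joins, were called with the trend in opposite directions, at 0.805 (adjusted p in limma 0.00553) and -0.85 (0.036), and neither with the constant prior. ITGB4 differed by 0.575 with miR-223-3p and ITGA5 by -0.57 with miR-29a-3p. The integrin medians were 0.135, -0.125 and -0.235. Among 17 of 19 other membrane partners EPCAM, which binds tetraspanins with claudin-7, was the 1 member called, with the trend, at 1.14 with miR-223-3p and -0.99 between the mimics, and medians were -0.035, 0.085 and 0.07. EPCAM is on the epithelial list too, where 9 of 10 members lay above control with miR-223-3p, 4 of them without overlap, against 18.7% of all genes. With miR-29a-3p 8 of the 10 lay above the same control samples, 3 of them without overlap, against 19% of all genes. The epithelial medians were 0.1575, 0.065 and -0.165. Of these 10, EPCAM and KRT19 were called with the trend with miR-223-3p against control, where 0.684% of all genes were called. The mean of the epithelial list per sample was 11.35 to 11.59 with miR-223-3p, 11.22 to 11.24 with miR-29a-3p and 11.14 to 11.20 in control, and its part in the TSPAN7 value was not tested.

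The DHHC palmitoyltransferases attach the lipid that tetraspanins need to assemble. All 23 were measured and none was called with the constant prior. ZDHHC20 was called with the trend at 0.835 with miR-29a-3p (adjusted p in limma 0.0149), where it differed by 0.60 with miR-223-3p without a call, and ZDHHC18 at 0.865 between the mimics (0.00428). The list's medians were 0.105, 0.115 and 0.085. Of 22 vesicle and endosome genes 21 were measured, and VPS4B, an ATPase of the ESCRT machinery, was called with the trend in both comparisons with control. Its means were 8.78 in control, 9.77 after miR-223-3p and 9.94 after miR-29a-3p. Both comparisons use the same control samples, so a low control mean would enter both values. The adjusted p in limma was 0.297 and 0.122 with the constant prior and 0.0145 and 0.00319 with the trend, in that order of mimics. Medians of this list were 0.05, 0.005 and -0.025.

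Of the 9 genes listed as TSPAN7 partners none was called in any comparison or fit, and medians were -0.045, 0.145 and -0.08. PICK1, a scaffold that binds TSPAN7 and glutamate receptors, had means of 6.73 in control, 7.13 after miR-223-3p and 7.2 after miR-29a-3p. PIK3R1, a regulatory subunit of phosphoinositide 3-kinase, differed by 0.68 with miR-223-3p, and GRIA2, an AMPA receptor subunit, by 0.565. The tetraspanins with other symbols, PRPH2 and ROM1 of photoreceptors and UPK1A and UPK1B of urothelium, were not called either. UPK1B was the largest, at 0.94 with miR-223-3p and 0.755 with miR-29a-3p, from 6.155 in control, without overlap, with adjusted p in limma of 0.371 and 0.373. Both UPK1B values share the control samples. ROM1 differed by -0.515 with miR-29a-3p, with overlapping samples. Medians of the 4 were 0.125, 0.12 and -0.158.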

How the data were processed

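Total RNA of 6 NCI-H2023 samples was amplified, biotin labelled and hybridised to arrays, per the labels' protocols. The authors deposited log2 values made with RMA, and the genome build named is hg38, per the submitters' processing notes. No source used here gives RMA's version. RMA brings the arrays to one distribution, so a change in total messenger RNA cannot be seen.

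The deposited table holds 21448 probe sets, of which the platform annotation names 1 gene for 17709, several for 0 and none for 3739. All 17709 matched RefSeq gene identifiers. The brightest probe set of a gene was kept, which gave 17687 genes. No filter or further normalization was applied.

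One limma 3.58.1 fit (R 4.3.3, lmFit and eBayes, constant prior) on the 6 samples, leaving 3 residual degrees of freedom, gave the 3 contrasts. P-values were adjusted by Benjamini-Hochberg over 17687 genes, with a threshold of 0.05. The fit was run on simulated data to check that it returned the planted differences, and no result on its calls is drawn from it. Groups do not overlap where both samples of one lie beyond both of the other. Alternatives were the intensity trend, a robust prior, leaving out genes with a mean under 5, all probe sets, a second quantile normalization, median centring, array weights, a block for the replicate letter, a fit of just the groups compared and leaving out each sample. Leaving out samples and the block within the trend fit were chosen after seeing the data.

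The members, the partner and marker lists and TSPAN7 were chosen with earlier results of these data known. Values in all samples are given for TSPAN7, for members called in either fit and for the 4 largest differences of each contrast. Up to 3 genes of a partner list are named, those called in either fit or else among the 2 with the largest difference in a contrast. ADAM10, ITGB4, ITGA5, CD44, PTPRC, CD14, CD79A, MS4A1 and the neuronal markers are named beyond that rule, after their values were seen. So are the measured genes that overlap CD37, TSPAN1 and TSPAN31. Fibroblast, endothelial and lung lineage markers had no call in any contrast.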

Additional observations from a re-analysis of the deposited data

How the results depend on the processing

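The TSPAN7 difference kept its direction under every alternative run in all 3 comparisons. With miR-223-3p against control it was -1.65 and called with the intensity trend and without dim genes (adjusted p in limma 7.34e-05 and 0.0368). Under the other alternatives run without the trend it was uncalled, leaving out a sample included. Where both samples of the 2 groups compared were kept, these gave adjusted p in limma from 0.0684 with array weights to 0.224 with the replicate block. Without 1 sample the difference ran from -1.715 to -1.585. Between the mimics it was 1.455 and not called when only the groups compared were fitted (0.0735), and 1.365 to 1.545 and not called without any 1 sample, where 2 residual degrees of freedom remain and a lone sample is assumed to vary like the others. The count of tetraspanins called was 1 for miR-223-3p with the trend and without dim genes, and 2 between the mimics with the trend, 0 with only the groups compared and 0 to 0 without any 1 sample. Over all genes the counts with the trend were 121, 182 and 344 in the order of the report, and without dim genes 3, 17 and 107. The count between the mimics was 1 with only the groups compared. Without 1 sample it ran from 0 to 1, and from 0 to 2 with miR-29a-3p against control. For the trend and the dim genes the cause was not tested.

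With the replicate letter as a block the counts over all genes were 0 with miR-29a-3p against control and 0 between the mimics, no tetraspanin was called (0), and TSPAN7 was 1.455 between the mimics with an adjusted p in limma of 0.0694. With block and trend TSPAN7 kept both its calls (6.91e-05 with miR-223-3p against control). The deviations of A samples correlated between groups at 0.0682, 0.00393 and 0.135, so the letters were not taken to pair samples.

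The family median ran from -0.125 to 0 with miR-223-3p, from -0.03 to 0.06 with miR-29a-3p and from 0 to 0.035 between the mimics without 1 sample. Leaving out a sample turned the sign of small uncalled differences, with ranges from -0.445 to 0.025 for TSPAN1 with miR-223-3p, from -0.275 to 0.075 for TSPAN33 and from -0.65 to 0.73 for TSPAN8 with miR-29a-3p, and from -0.335 to 0.035 for TSPAN14 and from -0.34 to 0.01 for TSPAN31 between the mimics. Dim signals limit what can be said of the 11 members with a mean under 5.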
